A study of Mus musculus with 12 samples.

Results

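Profilin 1 (Pfn1) and 9 further genes of actin dynamics were followed in sorted peritoneal macrophages (Mϕ) during the resolution of a zymosan-induced peritonitis. The 10 genes, out of 47643 gene identifiers in each deposited table, were found by their symbols: Pfn1, Cfl1, Actb, Actg1, Tmsb4x, Tmsb10, Arpc1b, Arpc2, Arpc3 and Rnd3. Results of these same libraries, the log2 difference between CIII and VEH of Pfn1 and other genes among them, were known when the 10 genes were picked, so the differences of the individual genes are given as a description and without a p-value of their own. Female C57/BL6 mice, 8 to 12 weeks old, received zymosan A (5 mg/kg, intraperitoneal) and, from day 1 on, daily injections of compound III (CIII, 25 mg/kg), an inhibitor of the PGE2 synthase mPGES-1, or vehicle (VEH, a mixture of Tween-80, carboxymethyl-cellulose and saline). Mϕ were sorted from the lavage at day 6 as F4/80lo (CD45+, CD11b+, low for F4/80 and MerTK, high for MHCII) and F4/80hi (CD45+, CD11b+, high for F4/80 and MerTK), with 3 libraries for each treatment and subpopulation. These gates are those of the labels, while the study's gating scheme has F4/80lo Mϕ as MHCII+ and Ly6G-, which leaves out neutrophils. Thus, all mice had received zymosan, and no library came from an untreated animal.

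Actin filaments grow at one end and are taken apart at the other, and Mϕ use this turnover to spread, crawl and engulf particles. Profilin binds actin monomers and feeds them to growing filaments, while β-thymosins hold monomers in reserve and cofilin severs old filaments and frees their subunits. The Arp2/3 complex starts new branches on existing filaments, and Rnd3 is an atypical small GTPase that favours the loss of contractile actin bundles. Actb and Actg1 encode the cytoplasmic actins β and γ.

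The promoters of Pfn1, Rnd3, Tmsb4x and Cfl1 are shown because these were the 4 genes whose CIII libraries lay below all VEH libraries in 1 of the subpopulations. They are taken from RefSeq (GRCm38.p6), run 5′ to 3′ on the strand of the gene, and cover the 250 bases before the annotated start (for Tmsb4x the 153 bases of these that lie outside the GENCODE gene model, which begins upstream of the RefSeq start). Capitals mark every match, on either strand, to 6 motifs. The GC box was searched as GGGCGG, and the CCAAT box by these letters. The TATA box was searched as TATAAA, and the cAMP response element (CRE) in its full form as TGACGTCA. The core of the CRE was searched as TGACG, which every full form contains. The CArG box is the site of serum response factor, and none of the motifs overlapped another in these windows.
Pfn1, chr11:70654651-70654900, minus strand: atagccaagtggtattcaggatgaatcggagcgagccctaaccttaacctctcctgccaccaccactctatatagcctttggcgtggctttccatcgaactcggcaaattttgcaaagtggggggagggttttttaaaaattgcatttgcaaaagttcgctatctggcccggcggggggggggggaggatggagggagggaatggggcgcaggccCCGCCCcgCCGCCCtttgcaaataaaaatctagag
Rnd3, chr2:51149112-51149361, minus strand: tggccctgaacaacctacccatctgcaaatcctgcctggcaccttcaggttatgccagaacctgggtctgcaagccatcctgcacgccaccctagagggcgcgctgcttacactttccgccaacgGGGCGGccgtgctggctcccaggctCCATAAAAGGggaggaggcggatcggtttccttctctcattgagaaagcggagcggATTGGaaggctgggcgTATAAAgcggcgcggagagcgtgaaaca
Tmsb4x, chrX:167209316-167209468, minus strand: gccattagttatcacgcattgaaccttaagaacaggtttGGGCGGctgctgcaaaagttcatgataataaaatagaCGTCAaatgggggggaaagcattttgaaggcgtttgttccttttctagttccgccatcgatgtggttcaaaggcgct
Cfl1, chr19:5490205-5490454, plus strand: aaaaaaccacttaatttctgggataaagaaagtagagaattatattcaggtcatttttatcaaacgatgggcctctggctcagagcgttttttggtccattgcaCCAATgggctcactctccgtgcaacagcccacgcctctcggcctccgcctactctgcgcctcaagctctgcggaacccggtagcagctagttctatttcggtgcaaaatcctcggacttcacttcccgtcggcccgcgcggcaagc
Pfn1 held 2 GC boxes at 35 and 27 bases before its start and no other match. Rnd3 held 1 GC box 125 bases, 1 CArG box 100 bases, 1 CCAAT box 44 bases and 1 TATA box 28 bases before the start. Tmsb4x held a GC box at 211 and a CRE core at 174 bases before the RefSeq start, and Cfl1 a CCAAT box at 146 bases. Of the 9 genes with an entry in the promoter table (Actb had none), 0 held a full CRE, 2 a CRE core (Arpc3 and Tmsb4x), 2 a CArG box (Actg1 and Rnd3), 7 a GC box, 3 a CCAAT box and 1 a TATA box. Among the 32851 RefSeq promoters of the same length, 1.55% held a full CRE, 17.8% a CRE core, 1.47% a CArG box, 32.7% a GC box, 33.8% a CCAAT box and 12.4% a TATA box. A match describes letters in these windows and is not a measured binding site.

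The libraries held 426624 to 3389448 reads on genes. The deposited values are normalized counts, that is, reads per gene after collapsing PCR duplicates, divided by 1 size factor per library. Where a gene has 0 reads, as many as 3 are possible, which is 0.885 to 7.03 reads per 1000000 reads on genes (RPM) (counting error only). All 4 libraries of replicate number 3 differed from the other 8. Both libraries of number 3 lay above the other 4 in 1948 of 10718 genes (18.2%) and below them in 14.1% of F4/80lo Mϕ, and in 19.1% and 17.6% of the 10499 genes of F4/80hi Mϕ. Their gate markers departed from the other libraries of the same label as well. In F4/80hi Mϕ, Adgre1 (F4/80) reached 366 and 368 RPM in number 3 of VEH and CIII, against 1064 to 1336 in the other 4. Ccr2, a monocyte receptor, stood at 1199 and 704, against 20.2 to 306. The MHCII gene H2-Ab1 reached 3984 in CIII replicate 3 of F4/80hi Mϕ, within the range of F4/80lo Mϕ. In F4/80lo Mϕ, it was at 680.3 RPM in number 3 of VEH, against 3700.3 to 8376 in the remaining 5 libraries. For many of the genes, differences within replicate numbers or in numbers 1 and 2 alone are given as well. The study describes its data in general as coming from independent experiments, but does not say which mice gave each of the 3 libraries of a group, so p-values measure the spread between these libraries only. In sorted bulk samples, fewer cells of a type and less RNA per cell cannot be told apart.

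The comparison of CIII with VEH asked whether these genes differed in Mϕ between mice with and without the inhibitor at day 6. All CIII libraries lay below all VEH libraries for Pfn1 and Rnd3 in F4/80lo Mϕ, where means were 4.09-fold and 3.38-fold lower with CIII, and for Tmsb4x and Cfl1 in F4/80hi Mϕ, where means were 2.71-fold and 2.03-fold lower (n = 3 libraries each). Such a separation was seen in 4.92% of all genes of F4/80lo and 5.76% of all genes of F4/80hi Mϕ. The β-actin gene, Tmsb10 and the 3 Arp2/3 subunits overlapped between the treatments in both. In F4/80lo Mϕ, 6 of the 9 genes (all but Actg1) that passed the minimum of 3 mean normalized counts were lower with CIII, where 54.1% of all genes tested were. All 9 were lower in F4/80hi Mϕ, where 46.5% of all genes were, but 8 without VEH replicate 2 or CIII replicate 1 and 7 without VEH replicate 3, CIII replicate 2 or CIII replicate 3. The median log2 fold change of the 9 genes was −0.21 in F4/80lo Mϕ, against −0.05 over all genes, and −0.66 in F4/80hi Mϕ, against 0.05. After adjustment, limma called 0 of the 9 genes, and 0 of all 10718 genes of F4/80lo and 10499 genes of F4/80hi Mϕ, at a p under 0.05. Over all genes, 289 and 413 genes were below 0.05 without adjustment with limma, 286 and 408 with edgeR, and 296 and 423 with DESeq2, while 0 and 0 were so after adjustment with edgeR and 2 and 0 with DESeq2. An unadjusted limma p under 0.05 with a lower value was reached by 2 of the 9 genes in each, where 1.61% of all genes did so in F4/80lo Mϕ, and 2.65% in F4/80hi Mϕ. When replicate numbers entered limma as a block it was 3 of 9 in each, against 3.85% and 6.24% of all genes. As the genes were selected on this contrast, nothing is read from these counts.

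**Figure D1:**
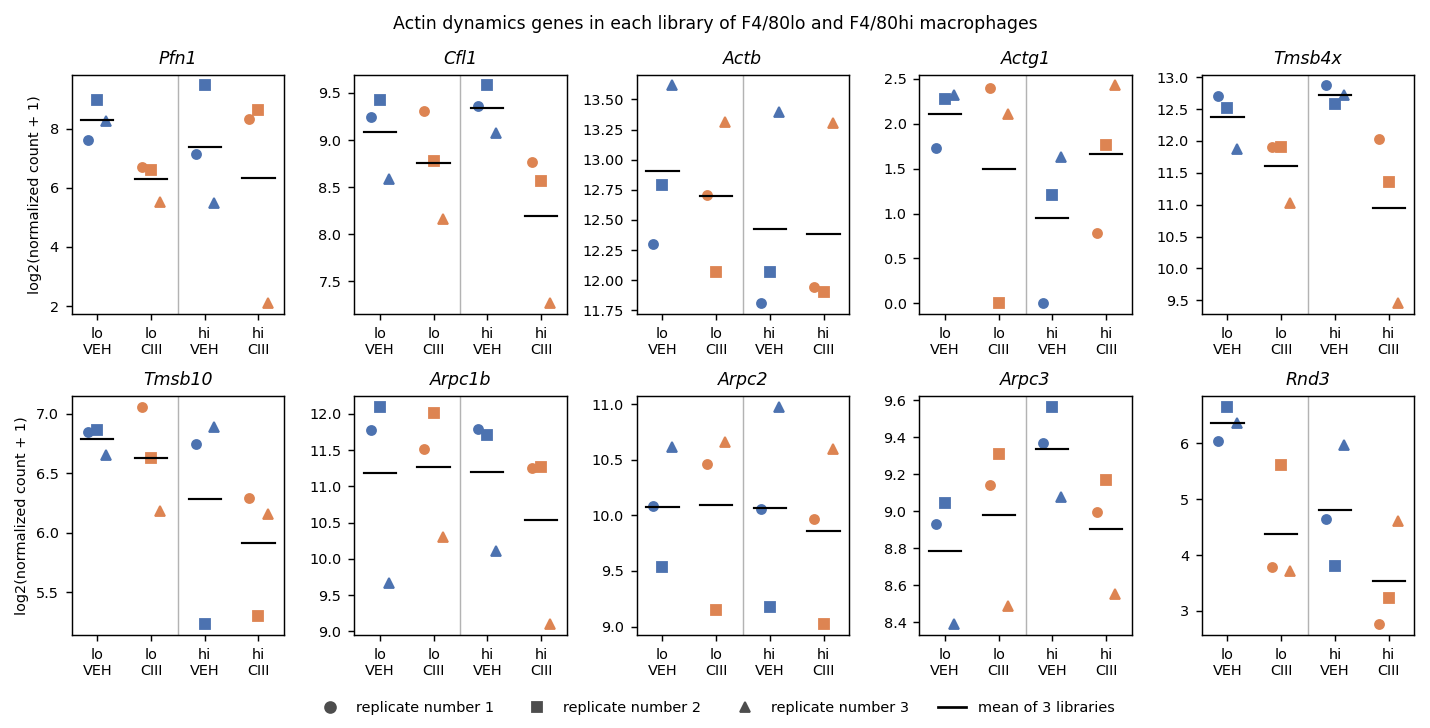
Log2 of the normalized count plus 1 of each of the 10 genes in the 12 libraries, with VEH in blue and CIII in orange, F4/80lo (lo) on the left and F4/80hi (hi) on the right of each panel; symbols mark the replicate number and the black line is the mean of 3 libraries. The panels have separate vertical axes, and Pfn1 of F4/80lo Mϕ shows all 3 CIII libraries below all 3 VEH libraries.

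Pfn1 (ENSMUSG00000018293, GRCm38 chromosome 11 from 70651850 to 70654644, minus strand) encodes the monomer-binding protein that supplies actin to filament ends. In F4/80lo Mϕ it had 195, 503 and 302 normalized counts in VEH libraries 1, 2 and 3, and 104, 95.9 and 45.3 in CIII libraries 1, 2 and 3. The highest CIII library was thus below the lowest VEH library. The mean was 4.09-fold lower with CIII (334 ± 156 against 81.6 ± 31.7, SD, n = 3 each). On the log2 scale of the normalized count plus 1, the difference was −2.00 (standard error 0.45, n = 3 libraries per treatment). It was −0.91, −2.38 and −2.71 within replicate numbers 1, 2 and 3, and −1.64 in numbers 1 and 2 alone. Leaving out each library in turn, it ranged from −2.33 to −1.63.

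In F4/80hi Mϕ the libraries spread over a wide range. Pfn1 had 141, 702 and 44.0 normalized counts in VEH libraries 1, 2 and 3, and 316, 395 and 3.28 in CIII libraries 1, 2 and 3. CIII replicate 3, one of the libraries that stood apart, held 6 reads of Pfn1, whereas CIII replicates 1 and 2 lay between the lowest and the highest VEH library. The treatments overlapped, and the log2 difference of −1.02 (standard error 1.62, n = 3 libraries per treatment) was smaller than its standard error. It was 1.16, −0.83 and −3.39 within numbers 1, 2 and 3, 1.10 without CIII replicate 3, 0.03 without VEH replicate 2 and 0.17 in numbers 1 and 2 alone. It was −2.16 without CIII replicate 2, −2.00 without CIII replicate 1, −1.96 without VEH replicate 3 and −0.30 with edgeR. The response of F4/80lo minus that of F4/80hi Mϕ was −0.98 (standard error 1.92). It was −3.10 without CIII replicate 3 and 0.16 without CIII replicate 2 of F4/80hi Mϕ, and −1.81 in numbers 1 and 2 alone, so its size rested on single libraries.

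Tmsb4x (ENSMUSG00000049775, chromosome X from 167207093 to 167209315, minus strand) encodes thymosin β4, the main protein that sequesters actin monomers in many leukocytes. In F4/80hi Mϕ its VEH libraries 1, 2 and 3 held 7488, 6118 and 6771 normalized counts and its CIII libraries 4197, 2629.5 and 699.6. All CIII libraries were below all VEH libraries, and CIII replicate 3 was far below the others. The mean was 2.71-fold lower with CIII (6792 ± 686 against 2509 ± 1752, SD, n = 3 each), and the log2 difference was −1.78 (standard error 0.67). It was −0.84, −1.22 and −3.27 within numbers 1, 2 and 3, −1.03 in numbers 1 and 2 alone, and −1.03 without CIII replicate 3. In F4/80lo Mϕ, Tmsb4x had 6682, 5884 and 3769.5 normalized counts with VEH and 3823, 3838 and 2082 with CIII. Here VEH replicate 3 lay within the range of the CIII libraries. The log2 difference was −0.76 (standard error 0.50), nearly the same within all numbers (−0.81, −0.62 and −0.86), −0.71 in numbers 1 and 2 alone, and −0.47 without CIII replicate 3.

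Tmsb10 (ENSMUSG00000079523, chromosome 6 from 72957347 to 72958748, minus strand) encodes the related thymosin β10. Its values were close together in F4/80lo Mϕ, with 114, 116 and 99.6 normalized counts with VEH and 133, 98.2 and 71.9 with CIII. Tmsb10 of F4/80hi Mϕ had 106, 36.6 and 117 with VEH and 77.2, 38.5 and 70.6 with CIII, where both libraries of number 2 were lowest. The log2 differences of −0.16 (standard error 0.36) and −0.37 (standard error 0.51) were within the spread between libraries. The former turned to 0.06 without CIII replicate 3 and was −0.38 without CIII replicate 1. The latter was −0.90 without VEH replicate 2 and −0.06 without CIII replicate 2. Within numbers 1, 2 and 3, Tmsb10 differed by 0.22, −0.23 and −0.47 in F4/80lo and by −0.46, 0.07 and −0.73 in F4/80hi Mϕ, and numbers 1 and 2 alone gave −0.01 and −0.19. Of the 50-base windows in the last 300 bases of the longest Tmsb10 transcript, 77.7% are also found in the annotated gene Gm9844. Reads of these windows could be split between the copies or left uncounted, and how they were treated is not given. Gm9844 had at most 6 reads in any library, which does not show how many reads of Tmsb10 were lost. The last 300 bases of Pfn1, Cfl1, Actg1, Tmsb4x, Rnd3 and the 3 Arp2/3 subunits share 0 such windows with transcripts of other genes.

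Cfl1 (ENSMUSG00000056201, chromosome 19 from 5490455 to 5495201, plus strand), which encodes the filament-severing protein cofilin 1, had 655, 764 and 539.8 normalized counts in VEH and 434, 377 and 153 in CIII libraries 1, 2 and 3 of F4/80hi Mϕ. The treatments did not overlap, and the mean was 2.03-fold lower with CIII (653 ± 112 against 321 ± 148, SD, n = 3 each). The log2 difference was −1.14 (standard error 0.44), with −0.59, −1.02 and −1.81 within numbers 1, 2 and 3, −0.81 in numbers 1 and 2 alone, and −0.68 without CIII replicate 3. In F4/80lo Mϕ, Cfl1 had 604, 687 and 384 normalized counts with VEH and 634, 439 and 286 with CIII. There the treatments overlapped and the log2 difference was −0.33 (standard error 0.40), but −0.61 without CIII replicate 1 and −0.04 without CIII replicate 3. It was 0.07, −0.65 and −0.42 within numbers 1, 2 and 3, and −0.29 in numbers 1 and 2 alone. Snx32 overlaps Cfl1 on the opposite strand, and the strand setting of the counting is not given in the sources used here. Whether the counting kept reads of the pair apart is thus not known and was not tested.

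Rnd3 (ENSMUSG00000017144, chromosome 2 from 51130438 to 51149111, minus strand) was the gene most alike to Pfn1 in the size of its difference in F4/80lo Mϕ, although its level was lower. Its product acts against contractile actin bundles. It had 65.2, 100.1 and 81.3 normalized counts in VEH and 12.8, 48.0 and 12.2 in CIII libraries 1, 2 and 3. All CIII libraries were below all VEH libraries, with CIII replicate 2 nearest to them. The mean was 3.38-fold lower with CIII (82.2 ± 17.5 against 24.3 ± 20.5, SD, n = 3 each), the log2 difference was −1.98 (standard error 0.54), and it was −2.26, −1.05 and −2.64 within numbers 1, 2 and 3. Leaving out each library gave −2.61 to −1.66, and it was −1.66 in numbers 1 and 2 alone. Rnd3 of F4/80hi Mϕ had 23.9, 13.1 and 61.8 normalized counts with VEH and 5.78, 8.41 and 23.5 with CIII. CIII replicate 3 was above VEH replicate 2, so the treatments overlapped, although CIII was lower within each number (−1.88, −0.58 and −1.36). The log2 difference of −1.27 (standard error 0.70) was −0.69 without VEH replicate 3 and −1.23 in numbers 1 and 2 alone.

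The cytoplasmic actins build the filaments themselves. Actb (ENSMUSG00000029580, chromosome 5 from 142903115 to 142906754, minus strand) had 5052, 7099.7 and 12554 normalized counts with VEH and 6686, 4302 and 10199 with CIII in F4/80lo Mϕ. Values in F4/80hi Mϕ were 3587, 4286 and 10785 with VEH and 3935, 3833 and 10089.8 with CIII. In each subpopulation the 2 libraries of number 3 were the highest, whatever the treatment. The log2 differences of −0.21 (standard error 0.59) and −0.04 (standard error 0.65) were smaller than their standard errors. Both changed sign without VEH replicate 3 (to 0.15 and 0.45) and without CIII replicate 2 (to 0.11 and 0.20), and the latter also without CIII replicate 1 (0.18). They were −0.51 and −0.35 without VEH replicate 1, and −0.52 and −0.50 without CIII replicate 3. Within numbers 1, 2 and 3, Actb differed by 0.40, −0.72 and −0.30 in F4/80lo and by 0.13, −0.16 and −0.10 in F4/80hi Mϕ, and numbers 1 and 2 alone gave −0.16 and −0.01. Of the last 300 bases of Actb, 8.37% of the 50-base windows are shared with Lrrc58. Actg1 (ENSMUSG00000062825, chromosome 11 from 120345690 to 120348542, minus strand) was hardly detected. It had 2, 3 and 12 reads in VEH and 6, 0 and 3 reads in CIII libraries 1, 2 and 3 of F4/80lo Mϕ, and 0, 1 and 2 with VEH and 1, 2 and 8 with CIII in F4/80hi Mϕ. Actg1 did not pass the minimum in either subpopulation, so its response could not be measured. Why so few reads fell on it was not tested.

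Of the Arp2/3 complex, 3 subunits were followed. Arpc1b (ENSMUSG00000029622, chromosome 5 from 145114215 to 145130705, plus strand), the subunit found mostly in blood cells, had 3514, 4395 and 811 normalized counts with VEH and 2919, 4119 and 1261 with CIII in F4/80lo Mϕ. Those of F4/80hi Mϕ were 3542, 3334 and 1099 with VEH and 2431, 2472 and 546 with CIII. Both libraries of number 3 were the lowest in each subpopulation. Its log2 difference of 0.09 (standard error 0.67) in F4/80lo Mϕ turned to −0.67 without VEH replicate 3, −0.28 without CIII replicate 2 and −0.03 without CIII replicate 1, and was −0.18 in numbers 1 and 2 alone. Leaving out CIII replicate 3 gave 0.58, VEH replicate 2 gave 0.55 and VEH replicate 1 gave 0.39. In F4/80hi Mϕ it was −0.66 (standard error 0.70), negative within each number (−0.54, −0.43 and −1.01), −0.49 in numbers 1 and 2 alone, −1.21 without VEH replicate 3 and 0.06 without CIII replicate 3. Pdap1 overlaps the 3′ part of Arpc1b on the opposite strand, with the same limit as for Cfl1 and Snx32.

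Arpc2 (ENSMUSG00000006304, chromosome 1 from 74236084 to 74268209, plus strand), a core subunit of the complex, had 1086, 741 and 1564 normalized counts with VEH and 1407, 567 and 1613 with CIII in F4/80lo Mϕ. F4/80hi Mϕ had 1062, 577 and 2016 with VEH and 998, 518 and 1546 with CIII. Number 2 was the lowest and number 3 the highest in each treatment and subpopulation, and the log2 differences of 0.01 (standard error 0.48) and −0.21 (standard error 0.56) were well within the spread. That of F4/80lo Mϕ turned negative without VEH replicate 2 (−0.26), CIII replicate 1 (−0.17) or CIII replicate 3 (−0.27) and was 0.48 without CIII replicate 2, and that of F4/80hi Mϕ was 0.24 without VEH replicate 3, −0.66 without VEH replicate 2, and 0.21 when CIII replicate 2 was left out. Within numbers 1, 2 and 3, Arpc2 differed by 0.37, −0.39 and 0.04 in F4/80lo and by −0.09, −0.16 and −0.38 in F4/80hi Mϕ, and numbers 1 and 2 alone gave −0.01 and −0.12. Arpc3 (ENSMUSG00000029465, chromosome 5 from 122391878 to 122414184, plus strand) had 486, 526 and 334 normalized counts with VEH and 565, 633 and 358 with CIII in F4/80lo, and 661, 756 and 539 with VEH and 509, 574 and 375 with CIII in F4/80hi Mϕ. Within replicate numbers 1, 2 and 3 it was higher with CIII by 0.21, 0.27 and 0.10 in F4/80lo Mϕ and differed by −0.38, −0.40 and −0.52 in F4/80hi Mϕ on the log2 scale. The treatments overlapped in both, and the differences of 0.19 (standard error 0.37) and −0.43 (standard error 0.34) compare with −0.01 without VEH replicate 3 in F4/80lo Mϕ and a range of −0.56 to −0.26 over the libraries left out in F4/80hi Mϕ. Numbers 1 and 2 alone gave 0.24 and −0.39.

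**Figure D2:**
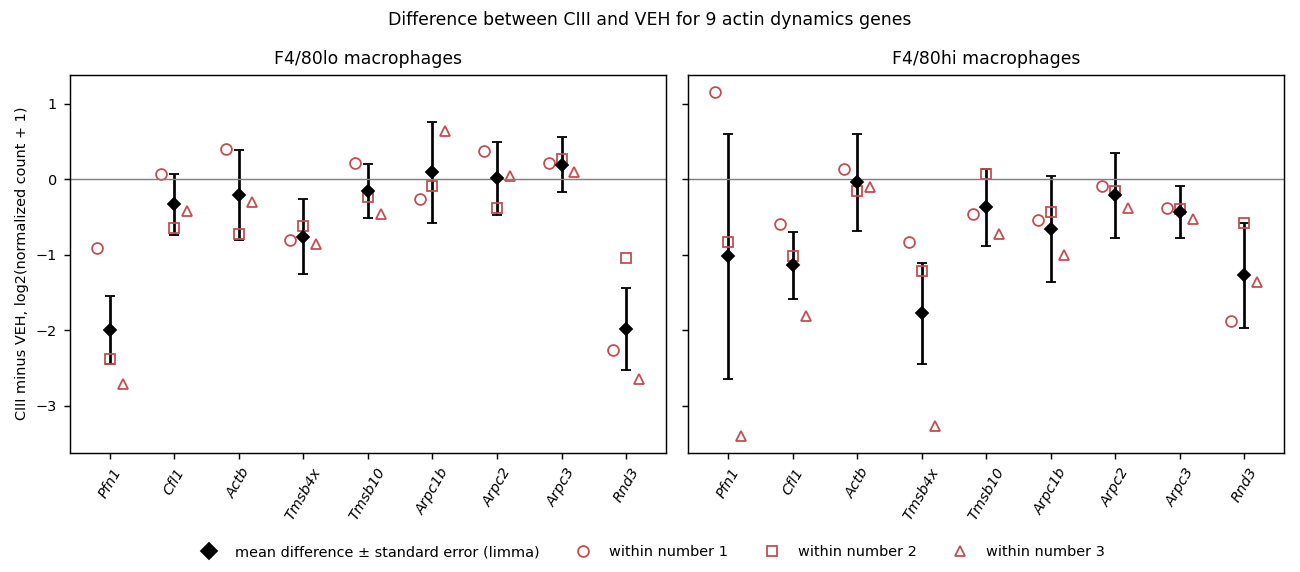
Difference between CIII and VEH on the log2(normalized count + 1) scale for the 9 genes tested, F4/80lo left and F4/80hi right; black diamonds are the means over 3 libraries per treatment with limma's standard error, and open symbols the differences within replicate numbers 1, 2 and 3. Pfn1 and Rnd3 lie near −2.00 and −1.98 in F4/80lo Mϕ, and number 3 gives the lowest value of Pfn1, Cfl1 and Tmsb4x in F4/80hi Mϕ.

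Within each replicate number, CIII was lower than VEH for Pfn1, Tmsb4x and Rnd3 in F4/80lo Mϕ (3 of 9 genes, with 15.7% of all genes), and for 6 of 9 genes in F4/80hi Mϕ (16.6% of all genes). The difference of the response between F4/80lo and F4/80hi Mϕ was tested over all 12 libraries, and 0 of the 9 genes and 0 of 10097 genes passed an adjusted p of 0.05 with limma or edgeR. Without adjustment, 173 genes (1.71%) passed 0.05 with limma, 0 of the 9 among them, and 166 with edgeR. The response of F4/80lo minus that of F4/80hi Mϕ was 1.02 (standard error 0.83) for Tmsb4x, 0.81 (standard error 0.60) for Cfl1 and −0.71 (standard error 0.94) for Rnd3. Single libraries moved these values. Without CIII replicate 3 of F4/80hi Mϕ they were 0.27 for Tmsb4x, 0.34 for Cfl1 and −0.17 for Rnd3, and the other end of their ranges was 1.56 without CIII replicate 1 of F4/80hi, 1.10 without CIII replicate 3 of F4/80lo and −1.33 without CIII replicate 2 of F4/80lo Mϕ. No gene is called particular to either subpopulation.

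Libraries of number 3 departed from the others in opposite directions for different genes. In both subpopulations, both libraries of number 3 were above the other 4 for Actb and Arpc2, and below them for Arpc1b. They were also below them for Cfl1, Tmsb4x and Arpc3 in F4/80lo and for Pfn1 in F4/80hi Mϕ. Over the 12 libraries, after subtracting each subpopulation's mean, Arpc1b and Arpc3 varied together (Pearson r = 0.90, n = 12), as did Cfl1 and Tmsb4x (r = 0.94), while Actb and Arpc1b varied in opposition (r = −0.90). Rnd3 followed none of these genes closely, with r between −0.14 and 0.46. Pfn1 varied with Cfl1 (r = 0.73), Tmsb4x (r = 0.69) and Arpc1b (r = 0.66). These correlations describe libraries that share replicate number and treatment, and no p is given. Of 6019 genes whose mean reached 20 normalized counts in both tables, the pattern most like that of Pfn1 over the 12 libraries was that of Tars, a threonyl-tRNA synthetase gene (r = 0.94), followed by G3bp1, which encodes a stress granule protein (r = 0.92), Fam214b (r = 0.92), Hnrnpa2b1, which encodes an RNA-binding protein (r = 0.91), and Hspa5, the endoplasmic reticulum chaperone BiP (r = 0.91). By correlation with Pfn1, Cfl1 ranked 171 and Tmsb4x 262. Pfn1 lay farthest from its mean in CIII replicate 3 of F4/80hi Mϕ, with 6 reads, so its correlations and this ranking lean on that library. Within F4/80hi Mϕ, the 5 genes most like Pfn1 had their lowest value there too. The log2 difference between CIII and VEH in F4/80lo Mϕ was −0.36 for Tars, −0.81 for G3bp1, −0.44 for Fam214b, −0.28 for Hnrnpa2b1 and −0.10 for Hspa5, beside −2.00 for Pfn1.

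**Figure D3:**
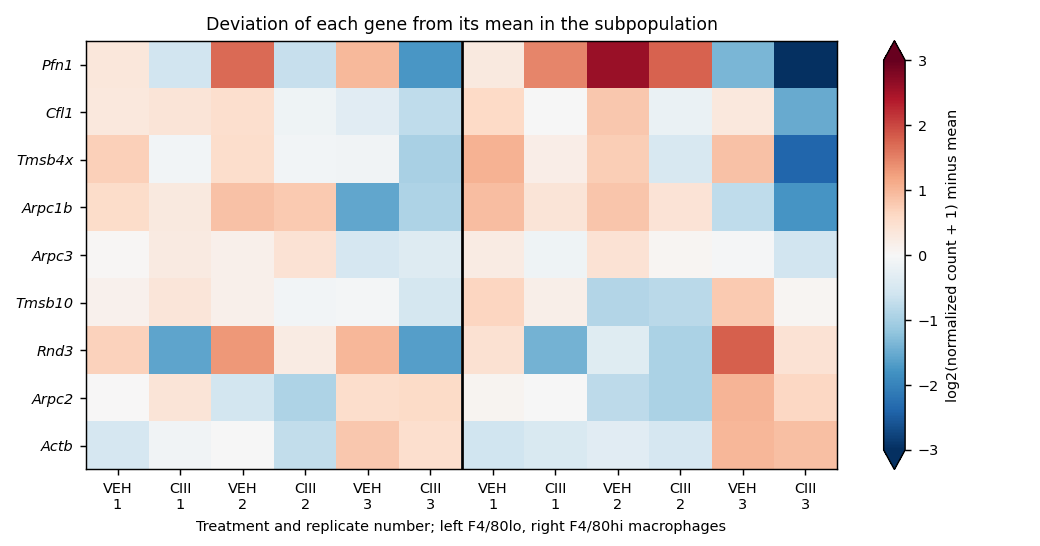
Heat map of the deviation of each of the 9 genes (rows) from its mean over the 6 libraries of its subpopulation, on the log2(normalized count + 1) scale, with blue below and red above the mean and the scale ending at 3 in either direction; columns are the libraries, ordered by replicate number within F4/80lo (left) and F4/80hi (right). Libraries of number 3 are red for Actb and Arpc2 and blue for Arpc1b in both subpopulations.

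The rest of the actin machinery was read from 104 further genes, grouped by role into 9 lists. Of these, 89 were tested in F4/80lo Mϕ, 52 lower and 37 higher with CIII, and 91 in F4/80hi Mϕ, 38 lower and 53 higher. In numbers 1 and 2 alone, 49 and 45 were lower. Their median log2 difference was −0.11 and 0.05, near the medians of all genes (−0.05 and 0.05). After adjustment, limma called 0 of them, and without adjustment 3 genes in F4/80lo (3.37%, against 2.7% of all genes) and 1 gene in F4/80hi Mϕ (1.10%, against 3.93%) were below 0.05. When replicate numbers entered as a block these were 4 and 12 genes, against 6.89% and 11.3% of all genes.

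The remaining 6 subunits of the Arp2/3 complex were all tested, with a median of −0.17 in F4/80lo (4 lower, 2 higher) and −0.29 in F4/80hi Mϕ (5 lower, 1 higher), and 0 reached an unadjusted p under 0.05 in limma's test. Activators of the complex, such as the WASP and WAVE family, had medians of 0.13 and 0.15 (5 lower and 8 higher, then 3 lower and 10 higher, of 13 tested). Formins and Ena/VASP proteins, which elongate unbranched filaments with the help of profilin, had a median of −0.18 over 8 genes in F4/80lo and 0.54 over 9 genes in F4/80hi Mϕ. Crosslinkers and adhesion genes had medians of 0.15 and 0.26, with 5 of 13 lower in F4/80lo and 1 of 12 lower in F4/80hi Mϕ, where 54.1% and 46.5% of all genes were, and 0 of them with an unadjusted p under 0.05. In numbers 1 and 2 alone, 9 of 13 and 3 of 12 of them were lower. The other monomer-binding and turnover genes had medians of −0.02 and 0.03, capping and severing genes of −0.17 and −0.26, and myosins and tropomyosins of −0.13 and −0.25. Of the 4 muscle actins, only Acta2 passed the minimum, in F4/80hi Mϕ alone, at 0.573 to 8.67 RPM.

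These 4 genes with an unadjusted p under 0.05 are named. Ssh2, a phosphatase that activates cofilin, had 229, 232 and 320.4 normalized counts in VEH and 423, 429 and 502 in CIII libraries of F4/80lo Mϕ, a log2 difference of 0.80 (standard error 0.32, limma, adjusted p = 0.9996). Myo1f, a leukocyte myosin, had 378, 404 and 281 with VEH and 483, 793 and 646 with CIII, a difference of 0.84 (standard error 0.35, limma, adjusted p = 0.9996). Capg, which caps filament ends, had 215, 353 and 244 with VEH and 157, 98.2 and 209 with CIII, a difference of −0.84 (standard error 0.38, limma, adjusted p = 0.9996), and −0.55 without CIII replicate 2. In F4/80hi Mϕ, Myl12a, a regulatory light chain of non-muscle myosin, had 360.3, 311 and 363 with VEH and 235, 192 and 170.1 with CIII, a difference of −0.80 (standard error 0.31, limma, adjusted p = 0.992). In each of these 4 genes the treatments did not overlap, which their selection by p in these same libraries favours. In the whole wider list CIII lay below VEH without overlap in 1 and above it in 3 of 89 genes in F4/80lo Mϕ, and in 7 and 4 of 91 genes in F4/80hi Mϕ, where the shares of all genes were 4.92% below and 3.82% above in the former, and 5.76% and 4.73% in the latter. Of the 4 named genes, 0 passed limma's adjusted threshold of 0.05, with or without the replicate block.

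**Figure D4:**
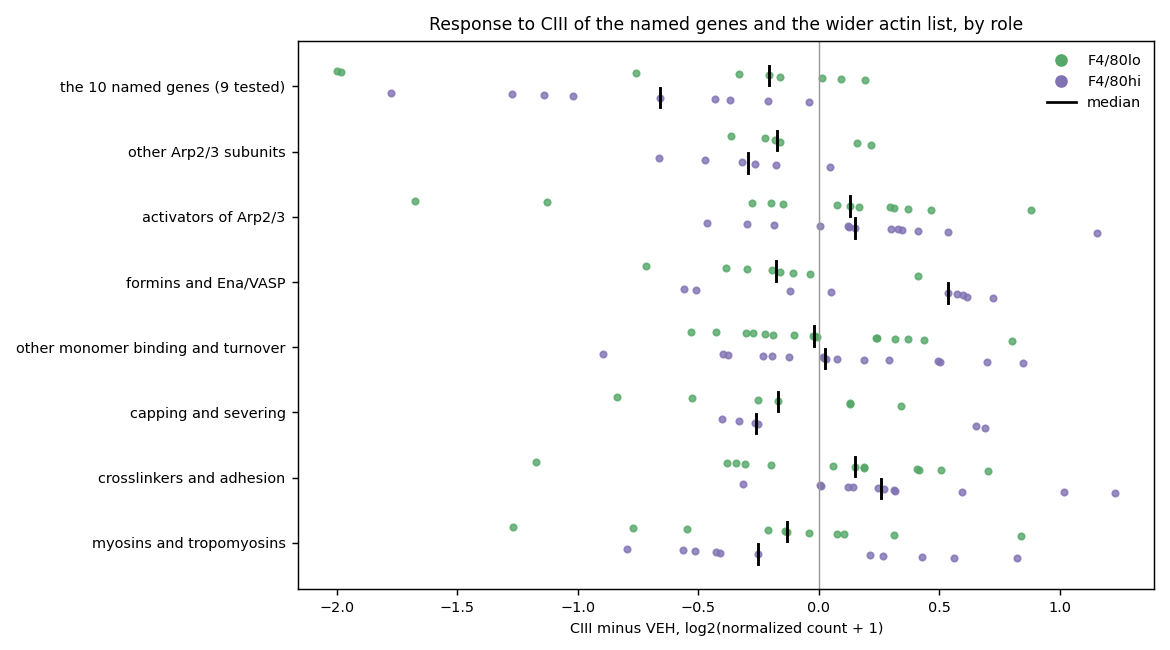
Log2 difference between CIII and VEH (horizontal axis) for every tested gene of the 10 named genes and of 7 role groups of the wider actin list, one point per gene, green for F4/80lo and purple for F4/80hi Mϕ, with black bars at the medians. The medians of these role groups lie between −0.29 and 0.54, and the 4 lowest points plotted for F4/80hi Mϕ are Tmsb4x, Rnd3, Cfl1 and Pfn1. The remaining 2 groups are not plotted, the muscle actins among them, of which Acta2 was at −1.05 in F4/80hi Mϕ.

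The level of the 10 genes was set side by side between the subpopulations as RPM, without a test, since the tables were normalized separately. With VEH, Rnd3 was higher in F4/80lo (66.9 to 110.2) than in F4/80hi Mϕ (14.5 to 56.2) without overlap, a 2.61-fold higher mean. Such a separation was found in 7.14% of the genes tested in both. With CIII the ranges of Rnd3 overlapped (12.8 to 49.2 and 6.39 to 24.7). For the other 8 genes that passed the minimum the ranges overlapped under both treatments. Levels in F4/80hi above those in F4/80lo Mϕ without overlap were found in 2.6% of genes with VEH and 4.51% with CIII, and the reverse with CIII in 6.18%, with 0 of the 9 genes in each. With VEH, Pfn1 ranged from 201 to 554 in F4/80lo, while its range was 40.0 to 776 in F4/80hi Mϕ, and with CIII the ranges were 47.5 to 112 and 3.44 to 445. Ordered by mean, Pfn1 was highest in VEH-treated F4/80lo, followed by VEH-treated F4/80hi, CIII-treated F4/80hi and CIII-treated F4/80lo Mϕ, and only the first and the last of these groups did not overlap. The medians gave another order, with 349.7 RPM in CIII-treated F4/80hi, 268 in VEH-treated F4/80lo, 146 in VEH-treated F4/80hi and 98.4 in CIII-treated F4/80lo Mϕ. The mean of VEH-treated F4/80hi Mϕ (321) rested on VEH replicate 2 at 776 RPM. Tmsb4x ranged from 3339 to 6864 and 6148 to 7776 with VEH, and from 2183 to 4142 and 733 to 4641 with CIII, in F4/80lo and F4/80hi Mϕ, respectively. Its mean was highest in VEH-treated F4/80hi Mϕ and lowest in CIII-treated F4/80hi Mϕ, as was its median. The lowest mean was pulled down by CIII replicate 3 at 733 RPM.

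Markers of the gates and of other cells were read beside these values. Neutrophil genes summed to 26.8 to 76.4 RPM with VEH and 23.1 to 56.3 with CIII in F4/80lo, and to 49.7 to 126 RPM with VEH and 37.9 to 45.5 with CIII in F4/80hi Mϕ, where the treatments did not overlap and Ly6g was at 0 in all 6 libraries. The platelet list summed to 15.6 to 473 RPM with VEH and 9.27 to 422 with CIII in F4/80lo and to 67.6 to 2515 RPM with VEH and 25.8 to 1039.8 with CIII in F4/80hi Mϕ, but nearly all of it was Pf4, which Mϕ also express, while Gp9 was at 0 in all 12 libraries and Ppbp reached at most 1.41 RPM. Pf4 was lowest in number 3 of each group, as Arpc1b was, at 66.6 and 21.8 RPM in F4/80hi Mϕ. The list of F4/80lo and monocyte-derived Mϕ (H2-Ab1, H2-Aa, Ccr2 and Cx3cr1) was higher with CIII without overlap in F4/80lo Mϕ, where Pfn1 and Rnd3 were lower, at 2757 to 9865 RPM with VEH and 11275 to 18914 with CIII. On the log2 scale the means of its 4 genes were higher with CIII in both subpopulations, with an unadjusted limma p under 0.05 for 1 of 4 in F4/80lo and for 3 of 4 in F4/80hi Mϕ, where Tmsb4x and Cfl1 were lower. Ccr2 of F4/80hi Mϕ, which was not among these, was lower with CIII within number 3 (1199 against 704 RPM). The list of F4/80hi and resident Mϕ (Adgre1, Mertk, Timd4, Gata6 and Icam2) summed to 557 to 686 RPM with VEH and 679 to 834 with CIII in F4/80lo, and to 639 to 2329 with VEH and 926 to 1931 with CIII in F4/80hi Mϕ, where Adgre1, Timd4, Gata6 and Icam2 overlapped between the treatments. Mertk, a receptor for the uptake of dead cells, was higher with CIII there without overlap (169 to 272 RPM with VEH and 330.3 to 435 with CIII) and had an unadjusted limma p under 0.05. The other 4 genes of the list had lower log2 means with CIII in F4/80hi Mϕ. In F4/80lo Mϕ, Mertk was also higher with CIII without overlap (193 to 214 RPM with VEH and 250 to 450 with CIII). The list of F4/80lo and monocyte-derived Mϕ summed to 486 to 2356 RPM with VEH and 1168 to 8519 with CIII in F4/80hi Mϕ, and was highest in CIII replicate 3, the library with the fewest reads of Pfn1. Erythroid genes reached 1442 RPM in VEH replicate 3 of F4/80hi and 476 in that of F4/80lo Mϕ, against at most 92.7 in any other library. Lists of mesothelial cells and fibroblasts, smooth muscle, and eosinophils and mast cells stayed at or below 8.67 RPM. B cell genes reached at most 189, T and NK cell genes 37.5 and dendritic cell genes 121 RPM, each in a library of F4/80lo Mϕ. There, T and NK cell genes also separated, with 7.17 to 12.1 RPM with VEH and 12.8 to 37.5 with CIII. The gene Gm42418 took 2.65% to 14.3% of the reads in libraries of number 3 and at most 0.579% in the others. Ribosomal protein genes took 1.89% to 3.67% of the reads with VEH and 0.863% to 1.54% with CIII in F4/80hi Mϕ, without overlap, where Tmsb4x and Cfl1 were lower, and 1.06% to 3.00% and 1.12% to 2.09% in F4/80lo Mϕ. The part of these differences in the values of Pfn1 and the other actin genes was not tested.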

How the data were processed

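The authors prepared 3′ mRNA libraries (QuantSeq FWD kit with molecular identifiers) from sorted Mϕ, aligned the reads to GRCm38 with STAR, collapsed PCR duplicates by molecular identifier, counted reads per gene with HTSeq and normalized them with DESeq2 (tool versions are not given in the sources used here). The deposited values are normalized counts (unit: signal), in 1 table per subpopulation, normalized separately. All values were whole multiples of 1 read (tolerance 0.01 read), so reads were recovered, 426624 to 3389448 per library.

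CIII was compared with VEH within each subpopulation, and the response between subpopulations over all 12 libraries, on log2(normalized count + 1) for genes with a mean of at least 3, with limma 3.58.1 (R 4.3.3, trend, two-sided) and Benjamini-Hochberg adjustment over all genes tested. Symbols, coordinates and 3′ windows came from GENCODE M21 (GRCm38), promoters from RefSeq (GRCm38.p6). The members and gene lists were chosen with earlier results of these data known. Named further genes had an unadjusted p under 0.05 in the wider actin list, or were the 5 most correlated with Pfn1. Alternatives were a replicate block, a pseudocount of 5, no minimum or one of 20, equal totals, quantile normalization, edgeR 4.0.16 and DESeq2 1.42.0 on recovered reads, library weights, leaving out each library, and numbers 1 and 2 alone. The separate result of 1 role group of the wider list is not reported here.

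Same-numbered VEH and CIII libraries deviated together from their group means, with correlations for numbers 1, 2 and 3 of 0.12, 0.24 and 0.50 (F4/80lo) and of 0.22, 0.41 and 0.64 (F4/80hi), so the numbers were taken to pair the libraries. The pairing is read from the data. Different numbers correlated by at most 0.17 and 0.28, in each case VEH 1 with CIII 2. These values were above those of VEH 1 with CIII 1 (0.12 and 0.22). The correlations thus do not tell the pair of number 1 from number 2, and they were strongest for number 3.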

Additional observations from a re-analysis of the deposited data

Results flagged for a closer look

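Arpc3, a subunit of the Arp2/3 complex, was higher with CIII within all 3 replicate numbers of F4/80lo Mϕ (mean log2 difference 0.19) and lower within all 3 of F4/80hi Mϕ (−0.43). Such opposite directions in all numbers were found in 2.65% of 10097 genes. The difference between the subpopulations was 0.62 (standard error 0.47), and Arpc3 was among the 9 genes of which 0 had an unadjusted p under 0.05 in limma's test of this difference over all 12 libraries. Without VEH replicate 3 the value of F4/80lo Mϕ was −0.01, and without CIII replicate 3 it was 0.44.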

How the results depend on the processing

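In F4/80lo Mϕ the number of genes with an adjusted p under 0.05 was 0 with limma, 2 with DESeq2, 2 with library weights and 12 in replicate numbers 1 and 2 alone, none of them among the 10 actin genes, and it was 0 to 0 with each library left out. The cause was not tested. Of the actin genes, 2 in F4/80hi Mϕ had an unadjusted p under 0.05, against 1 without a minimum, 1 with the same total per library and 1 with edgeR, and 0 to 2 with each library left out (0 without VEH replicate 1 and 1 without CIII replicate 3). With the replicate block the count was 3 in each subpopulation instead of 2, and adjusted counts stayed 0 in both. Over all genes the pairing raised the unadjusted calls, from 289 to 738 (F4/80lo) and from 413 to 1187 (F4/80hi), and in the wider actin list from 3 to 4 and from 1 to 12. The number of genes lower with CIII was 6 to 8 with each library left out, 5 with library weights and up to 8 in other settings in F4/80lo Mϕ, and 7 to 9 in F4/80hi Mϕ. Of 477 refitted differences of the 9 genes, 0 moved by over 1 SD (the SD between libraries on the log2 scale, pooled over VEH and CIII) and 48 changed sign. Within a subpopulation, leaving out 1 of 3 libraries cannot move a difference by 1 such SD, and some settings return the same estimate. The 0 is therefore no measure of stability. Pfn1 of F4/80hi Mϕ, at −1.02, was 1.10 without CIII replicate 3 and still counted as not moved. Equal totals shifted the median of all genes in F4/80hi Mϕ from 0.05 to 0.15, and Actb then differed by 0.07. DESeq2 was not run for the difference between subpopulations.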
